A study of Mus musculus with 14 samples.

Results

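The H3K27me3 sites described here are those of intermediate width in 1 deposited list of broad peaks from mouse fibroblasts, at least 5000 bp and under 10000 bp from start to end, on chromosomes 1 to 19. The list held 153983 sites, of which 144903 lay on these autosomes, and 3564 of the latter (2.46%) met the rule. The sites were chosen by their width, so widths are given as a description, and sites of 1 to under 5 kb (29646) and of 10 kb or more (1442) are used only to show where the 3564 sites differ.

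The study asked how histone marks change upon loss of ASH2L, a core component of the COMPASS/KMT2 enzymes for H3K4 methylation. Immortalised mouse embryo fibroblasts (iMEF) were transduced with a lentivirus for human ASH2L fused to an FKBP tag and HA epitopes (FKBP-HA2-ASH2L), exon 4 of the endogenous Ash2l loci was removed with 4-hydroxytamoxifen, and clones were grown by limiting dilution. According to the study's description of its ChIP-seq experiments, the NG3 clone was used. All groups therefore carry the deletion and the fusion, and differences between clones were not sampled. The H3K27me3 experiment had 6 groups of 2 libraries each, a control without dTAG treatment and cells treated with dTAG-13, a PROTAC that recruits an E3 ubiquitin ligase to the FKBP tag for degradation of the fusion, for 30 min, 2 h, 4 h, 8 h or 16 h, together with 2 input libraries (control and 16 h). The list joins the sites over all samples and holds their positions, with no value per library. The groups were therefore not compared, there are no replicates and no p-values, and the read depth behind a site is unknown. The intervals below are 95% intervals that cover the counting of sites only, and neighbouring sites are not independent.

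H3K27me3 is set by Polycomb repressive complex 2 (PRC2) and is found at genes that are kept silent, among them many regulators of development that belong to other lineages than the cell in question. CpG islands, stretches of DNA that have kept their CpG dinucleotides, are known as places where PRC2 is recruited, and from there the mark can spread over the neighbouring nucleosomes. In most of the mammalian genome methylated CpG dinucleotides have been lost by deamination, so the ratio of observed to expected CpG is well under 1 and a local rise of it marks an island.

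The starts held by these sites ranged from islands to sequence almost without CpG. The 150 bp just upstream of the 5′-most transcription start site (TSS) inside the site are shown for 8 genes, written 5′ to 3′ in the direction of transcription with each CpG in capitals (mouse GRCm38.p6 sequence from RefSeq, outside annotated exons). The first 4 genes came from the sites most one-sided about their start or most evenly split, and the other 4 were added after the data had been seen, Lmx1a and Prox1 as further CpG-rich starts, Sox1 from the site with the highest and Krtap5-1 from one of the 3 sites with the lowest CpG ratios.
Tmem150c, chr5:100159809-100159958, minus strand: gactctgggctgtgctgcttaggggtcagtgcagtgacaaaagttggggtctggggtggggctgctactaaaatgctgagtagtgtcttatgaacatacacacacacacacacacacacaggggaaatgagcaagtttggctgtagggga
Scn4a, chr11:106353289-106353438, minus strand: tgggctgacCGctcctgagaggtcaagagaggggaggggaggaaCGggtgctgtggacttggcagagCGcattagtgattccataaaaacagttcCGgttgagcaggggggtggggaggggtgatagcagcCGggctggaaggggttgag
Uts2r, chr11:121160121-121160270, plus strand: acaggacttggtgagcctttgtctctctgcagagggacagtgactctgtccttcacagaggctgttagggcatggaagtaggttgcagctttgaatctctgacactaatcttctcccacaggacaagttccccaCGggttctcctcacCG
Fgr, chr4:132973945-132974094, plus strand: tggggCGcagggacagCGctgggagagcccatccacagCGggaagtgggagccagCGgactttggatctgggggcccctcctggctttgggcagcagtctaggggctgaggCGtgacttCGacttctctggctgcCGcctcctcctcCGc
Lmx1a, chr1:167689087-167689236, plus strand: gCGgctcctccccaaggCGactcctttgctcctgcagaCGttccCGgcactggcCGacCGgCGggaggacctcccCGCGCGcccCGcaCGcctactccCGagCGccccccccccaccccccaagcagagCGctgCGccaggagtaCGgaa
Prox1, chr1:190170715-190170864, minus strand: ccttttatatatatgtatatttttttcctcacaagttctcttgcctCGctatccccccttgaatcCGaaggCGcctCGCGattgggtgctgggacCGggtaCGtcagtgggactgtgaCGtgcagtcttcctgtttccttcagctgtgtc
Sox1, chr8:12395145-12395294, plus strand: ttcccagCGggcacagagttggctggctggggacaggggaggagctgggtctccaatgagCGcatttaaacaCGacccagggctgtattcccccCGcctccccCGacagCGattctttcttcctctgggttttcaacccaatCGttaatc
Krtap5-1, chr7:142297119-142297268, minus strand: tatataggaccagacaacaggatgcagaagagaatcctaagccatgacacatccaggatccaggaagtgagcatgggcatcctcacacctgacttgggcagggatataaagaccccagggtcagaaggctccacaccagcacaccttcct
The number of CpGs in these 150 bp was 17 at Lmx1a, 8 at Prox1 and at Fgr, 7 at Sox1, 5 at Scn4a and 2 at Uts2r, while there was none at Krtap5-1. It was also 0 at Tmem150c, although this start counts as CpG-rich by the rule given below, which takes in the 500 bp on either side.

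The sites covered 24.2 Mb, 15.5% of all bases in autosomal sites and 1.01% of the autosomes. Their median width was 6486 bp, and 10% were under 5234 bp and 10% over 8908 bp. The number fell with width, from 1290 sites of 5000 to under 6000 bp to 323 sites of 9000 to under 10000 bp. At the lower limit, the narrowest sites were 5001 bp (17026 bp from the nearest TSS, that of Zfp652), 5001 bp (inside Gdap1l1) and 5002 bp (inside the cadherin gene Cdh23), and the nearest sites left out were 4999, 4999 and 4997 bp wide. At the upper limit, the widest were 9998 bp (no protein-coding gene), 9996 bp (at Tcfl5) and 9995 bp (at Phactr2), and the nearest left out were 10005, 10006 and 10006 bp wide, one of them at the proton-sensing receptor gene Gpr4.

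A protein-coding TSS lay in 1093 of the 3564 sites (30.7%, 29.2 to 32.2%). The share was 8.04% among sites of 1 to under 5 kb and 54.4% among sites of 10 kb or more, and it was higher than in the former and lower than in the latter on all 19 autosomes. A wider site can hold a start through its length alone, and the share rose within the sites as well, from 23.9% (21.6 to 26.3%) at 5000 to under 6000 bp to 43.3% (38.0 to 48.8%) at 9000 to under 10000 bp. Per Mb of covered sequence the 5′ ends of gene records numbered 34.6, against 8.68 per Mb over the autosomes, 24.6 in the narrower and 28.5 in the wider sites, and within the sites the density lay between 32.7 and 36.6 per Mb in the 5 width bins of 1000 bp. The density of CpG-rich gene-record starts, those with at least 50% GC and a CpG ratio of 0.6 or more in the 500 bp on either side, was 14.6 per Mb and close to that of the wider sites (15.2), whereas other gene-record starts were denser in the sites (19.99) than in the wider ones (13.3). Whether these densities differ beyond chance was not tested.

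The centre of a site was within 500 bp of a protein-coding TSS in 333 sites (9.34%, 8.43 to 10.3%), against 4.68% (4.45 to 4.93%) of the narrower and 7.42% (6.18 to 8.89%) of the wider sites and 2.15% of all autosome bases. The share was above that of the narrower sites on 19 of 19 autosomes and above that of the wider ones on 14, and the intervals of the sites and of the wider ones overlap. These are shares of all sites and move with the share that holds a TSS. Of the 1093 sites with a TSS inside, 30.5% (27.8 to 33.3%) had their centre within 500 bp of one, against 58.2% of the narrower and 13.6% of the wider sites with a TSS, in which this window is a larger and a smaller part of the width.

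**Figure D1:**
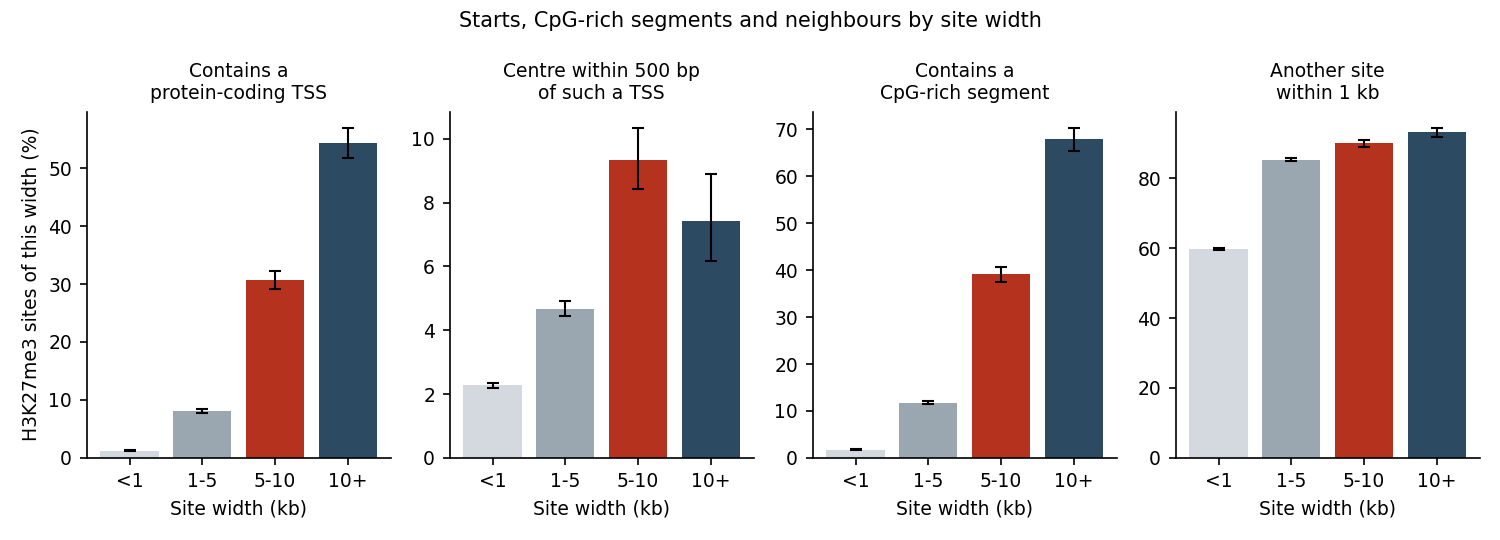
Percent of autosomal H3K27me3 sites (y axis) with the feature named above each panel, by site width in kb (x axis, lower limit included). Bars are shares and lines their 95% Wilson intervals; sites of 5 to under 10 kb are in red, at 30.7% for a protein-coding TSS, 9.34% for a centre within 500 bp of one, 39.2% for a CpG-rich segment and 90.1% for another site within 1 kb.

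The remaining sites fell into 4 positions. A TSS of another gene type only was held by 277 sites (7.77%), of which 108 held the start of a lincRNA, 60 of a processed pseudogene, 30 of an antisense gene and 19 of a miRNA. A further 838 (23.5%) lay inside a protein-coding gene away from its starts, 132 (3.70%) lay across the 3′ end of one and 1224 (34.3%) overlapped none. Inside genes, the 828 sites in exactly 1 gene had their centre a median of 45.8% (42.8 to 48.2%) of the way from start to end, in genes with a median length of 114847 bp, and 55.1% (51.7 to 58.4%) lay in the 50% of the gene nearer its start. Sites with no protein-coding gene were a median of 24876 bp from the nearest protein-coding TSS, and 381 of them were over 50 kb away. By bases, 7.79% of the covered length was exonic, 41.5% intronic and 50.7% outside protein-coding genes, against 3.86%, 37.5% and 58.7% of the autosomes.

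**Figure D2:**
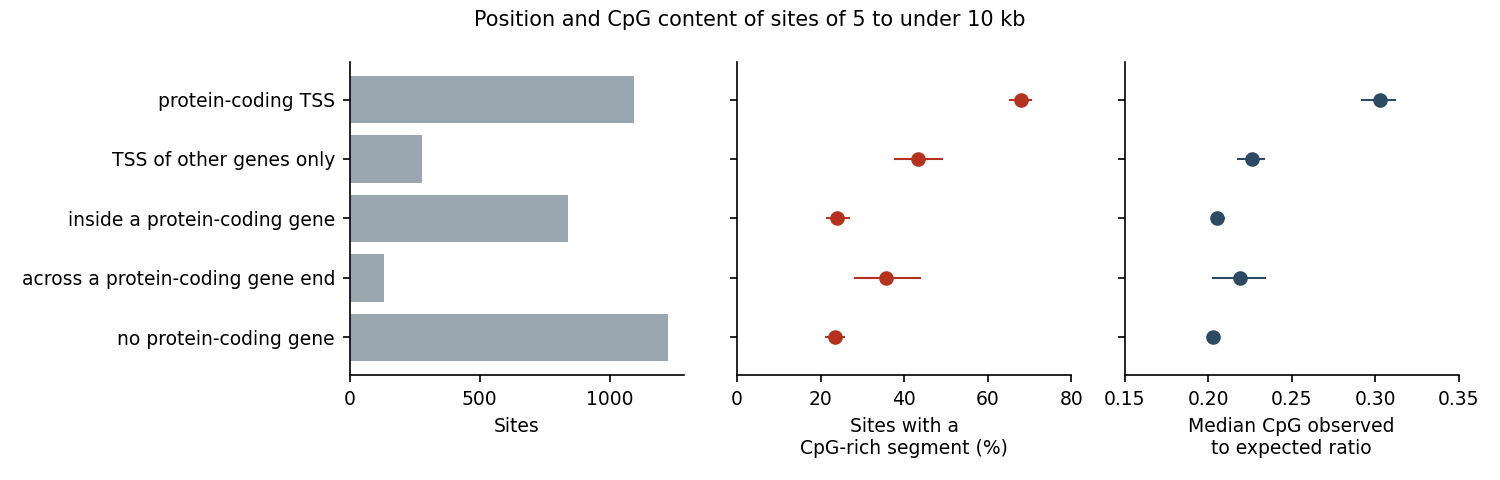
Number of sites of 5 to under 10 kb by position (left), percent of them with a CpG-rich segment (middle) and their median CpG observed to expected ratio (right), with points as values and lines as 95% intervals. The 1093 sites with a protein-coding TSS stand apart from the others, with a segment in 67.9% and a median ratio of 0.303.

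Each site with protein-coding TSSs mostly held those of a single gene. Exactly 1 gene was found in 1040 sites and 2 genes in the remaining 53, of which 22 were divergent pairs, 17 convergent or overlapping and 14 on the same strand. All 53 tie for the most genes, and the first in genome order held Plcd4, a phospholipase C, with Usp37, a deubiquitinase. At the 1040 single genes the site held the 5′ end of the gene record in 746 cases (71.7%), so that in the other 294 it lay at internal starts only, and the part of the site upstream of the start was then inside the gene. The site covered a median of 15.9% of the gene (14.0 to 17.6%), whose median length was 30470 bp, reached past the gene's 3′ end in 134 (12.9%) and contained the whole gene in 98 (9.42%).

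The sites extended to both sides of the start, and further downstream of it than upstream. Over the 1040 single genes, with the median of the TSS positions in the site as the start, 56.0% (54.5 to 58.0%) of the width lay downstream of the start at the median, with 10% of sites under 26.5% and 10% over 84.5%. The median reach was 2900 bp (2802 to 3019 bp) upstream and 3746 bp (3617 to 3890 bp) downstream. The downstream side was the longer one in 636 sites (61.2%, 58.2 to 64.1%), and the median share was over 50% on 19 of 19 autosomes, from 50.9% on chromosome 16 to 60.3% on chromosome 11. At least 1 kb was covered on both sides in 898 sites (86.3%), while 100 reached under 1 kb upstream and 42 under 1 kb downstream. The choice of start moved the median, to 60.7% with the 5′ end of the gene record and 60.4% with the 5′-most TSS in the site, and the median was 57.7% (55.1 to 59.9%) at the 433 genes with a single TSS position in the site. It was 57.05% (55.1 to 59.1%) at the 746 sites with the gene-record start and 54.0% (50.2 to 58.5%) at the 294 with internal starts only, with overlapping intervals. The narrower (58.1%) and wider (58.2%) sites had medians with overlapping intervals, and the sites were above the narrower ones on 7 of 19 autosomes.

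Sites with a CpG-rich start, that is with at least 1 TSS position inside the site that met the CpG rule, more often had room on both sides of the start. Of these 442 sites, all of which held a CpG-rich segment and 383 the gene-record start, 417 (94.3%, 91.8 to 96.1%) covered at least 1 kb on both sides, against 481 (80.4%, 77.1 to 83.4%) of the 598 without such a TSS, and the middle 80% of downstream shares ran from 31.6 to 77.4% against 22.7 to 88.8%. The medians were 54.97% (53.0 to 56.9%) and 57.9% (54.96 to 60.2%), with overlapping intervals. In genes shorter than 10 kb (251) the downstream share was 61.6% (58.7 to 65.5%), against 53.5% in genes of 10 to under 50 kb and 55.1% in longer ones. The contrast in room on both sides was also present in the other widths. At least 1 kb was covered on both sides in 98.75% of the wider sites with a CpG-rich start against 91.4% of those without. In the narrower sites these shares were 44.2% and 26.1%.

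**Figure D3:**
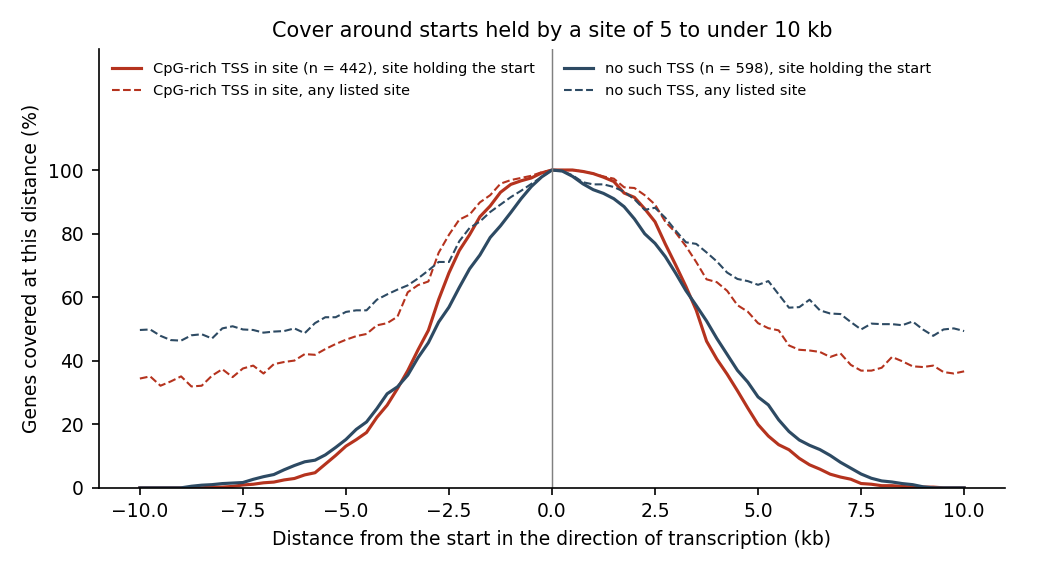
Percent of single genes covered (y axis) at each distance from the start in kb (x axis, downstream positive), by the site of 5 to under 10 kb that holds the start (solid) or by any listed site (dashed), for the 442 sites with a CpG-rich TSS inside and the 598 others. The start is the median of the TSS positions in the site. At 3 kb the solid lines stand at 70.1% and 67.6% downstream and at 49.5% and 45.7% upstream; at 10 kb the dashed lines are still between 34.4% and 49.7%.

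Single loci spanned the whole range. The site at Muc4, a membrane mucin, lay almost wholly upstream of the internal start it held, with 5979 bp upstream and 43 bp downstream. At Scn4a, the sodium channel of skeletal muscle, 6570 bp lay upstream and 206 bp downstream, and at Uts2r, the urotensin receptor, 8231 and 367 bp. At the other end, the site began 1 bp before the start of Krt75, a keratin of hair follicles, and ran 6221 bp into the gene. At Mapt, which encodes the microtubule protein tau, the site began 10 bp before the median of the 4 TSS positions it held and inside the gene record, with 7348 bp downstream. At Aire, the regulator of self-antigen expression in the thymus, it began 18 bp before an internal start, with 6905 bp downstream. These 6 sites were named because they have the most extreme shares. The split was even at Fgr, a Src family kinase, with 3587 bp on each side, and nearly so about internal starts of Dnajc6, which encodes the clathrin uncoating factor auxilin (2811 and 2810 bp), and at Tmem150c (2822 and 2825 bp).

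The strand of the genes differed with the distance of the start from the site's edge. Of the 126 gene-record starts inside a site and under 1 kb from its nearer edge, 77.8% (69.8 to 84.2%) were transcribed towards the interior of the site. The share was 74.6% (68.5 to 79.8%) for 224 starts at 1 to 2 kb and 62.3% (57.9 to 66.5%) for 488 starts at 2 to 5 kb. Just outside, 48.9% (38.8 to 59.0%) of 90 starts under 1 kb from the edge were transcribed towards the site, and 40.1% (34.5 to 46.1%) of 269 starts at 2 to 5 kb. Starts near an edge were also less often CpG-rich, with 19.8% of those under 1 kb inside against 48.6% of those at 2 to 5 kb inside.

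A TSS in a site of 5 to under 10 kb was found for 1066 of the 20807 autosomal protein-coding genes (5.12%), and 75 of these genes had TSSs in 2 or more of the sites. The share was lower among the 9511 genes with a CpG-rich gene-record start (4.50%, 4.10 to 4.94%) than among the 11296 others (5.65%, 5.24 to 6.09%), with separate intervals. A gene counts with any of its TSSs in a site, so its CpG-rich start can lie outside. Of the CpG-rich gene-record starts 354 lay in the sites, while 428 such genes were counted. In sites of 10 kb or more, which held a TSS of 3.83% of all genes, the shares were 4.16% (3.78 to 4.58%) and 3.55% (3.22 to 3.91%), with overlapping intervals. Gene classes were formed from gene symbols, and genes in any of the 12 classes had a share of 5.78% (5.10 to 6.55%) against 4.97% (4.65 to 5.31%) for the rest. The shares of single classes ran from 0 to 18.8%. A TSS lay in a site of 1 to under 5 kb for 10.3% of all genes. In what follows, upstream and downstream are counted from the median TSS position in the site, and it is said where that start is internal to the gene and the site does not hold the gene-record start.

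Homeobox genes, which encode transcription factors that pattern the body axis and specify cell identity, had the highest share. A TSS of 34 of 181 (18.8%, 13.8 to 25.1%) lay in a site of 5 to under 10 kb, and 92 (50.8%) had one in a site of 10 kb or more, against 3.83% of all genes. The widest of the sites at a homeobox gene was at Pitx3, a factor of lens and midbrain dopamine neurons, with a width of 9815 bp, and it lay wholly inside the gene, with 6977 bp before an internal start. At Pou2f2, the B-cell octamer factor Oct-2, the site was 9576 bp wide and nearly evenly split about an internal start (4484 bp upstream, 5091 bp downstream). Lmx1a, a LIM homeobox factor of dopamine neurons, had 2118 bp upstream and 7386 bp downstream, and Prox1, the factor of lymphatic endothelium, had 5949 bp upstream and 3515 bp downstream, with a CpG ratio of 0.519 over the whole site. Among the 34 genes 1 was a Hox gene, Hoxd3, which is named after the list had been seen.

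Other developmental transcription factors had a share of 10.9% (20 of 183, 7.19 to 16.3%), against 25.7% in the wider sites (3.83% of all genes). Sp5, a target of Wnt signalling, lay whole inside its site of 9257 bp, the gene being 2807 bp long, with 4881 bp upstream and 4375 bp downstream and a CpG ratio of 0.5996. The site at Sp9, a factor of limb and forebrain development, was 8050 bp wide with a ratio of 0.712. Ebf2, a factor of brown fat and neurons, had 7212 of 9540 bp downstream of its start, and Sp6, a factor of tooth and skin development, had 5773 of 9002 bp downstream of an internal start. The neural factor Sox1 had the highest CpG ratio of all the sites, 0.841 over 5123 bp, with 1344 bp upstream and 3778 bp downstream. Among secreted signals the share was 11.9% (21 of 176, 7.94 to 17.6%), against 18.2% in the narrower and 14.2% in the wider sites. The sites at the Wnt ligand gene Wnt4 (9408 bp) and at Rspo1 (9127 bp), an enhancer of Wnt signalling, were close to evenly split, with 48.2% and 44.6% downstream, the latter counted from an internal start. The wider site at Wnt6 lay mostly upstream (8266 of 9315 bp), and another of the sites, 5577 bp wide, also held a Wnt6 TSS. The site at Ntn1, an axon guidance molecule, lay mostly downstream (7244 of 9259 bp).

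Genes for ion channels had a share of 17.9% (40 of 223, 13.5 to 23.5%), near that of the homeobox genes. The share of ion channels was 29.1% in the narrower and 22.4% in the wider sites, against 10.3% and 3.83% of all genes. The site at Cacna1h, a T-type calcium channel, was 9850 bp wide and split 5240 to 4609 bp about an internal start, with other sites 7 and 131 bp away. The site at Asic1, an acid-sensing channel, lay wholly inside the gene, with 5710 bp before and 4093 bp after an internal start. At Kcnk13, a background potassium channel, 85.9% of the site was downstream, and at Kcng4, a modulatory potassium channel subunit, 68.1%. G protein-coupled receptors had a share of 11.5% (24 of 209, 7.84 to 16.5%), a class that by its symbols also includes the channel gene Htr3a. Their shares were 24.9% in the narrower and 8.61% in the wider sites. The 4 with the widest sites all had their site downstream, with 94.8% at the glutamate receptor gene Grm2, 82.5% at Gpr20, 75.2% at Gpr83 and 74.9% at the galanin receptor gene Galr3.

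Adhesion and matrix genes (28 of 311, 9.003%, 6.30 to 12.7%) and solute carriers (34 of 354, 9.60%, 6.95 to 13.1%) stood above the share over all genes with intervals that did not include it. In the narrower sites their shares were 18.6% and 16.9%, and in the wider sites 6.43% and 6.21%. In the former class the site at Adamts16, a metalloprotease, lay mostly upstream (8627 of 9906 bp). At Robo3, a guidance receptor of commissural axons, 6267 of 9712 bp lay before the median of the TSS positions and 3155 bp before the gene-record start. The wider site at the transmembrane collagen gene Col13a1 lay wholly inside the gene, with 6586 of 9702 bp before an internal start. Another of the sites, 5857 bp wide, also held a Col13a1 TSS. The site at the link protein gene Hapln4 held the whole gene and lay 79.1% downstream. In the latter class, the sites at Slc27a2, which takes part in fatty acid uptake, at Slc22a14 and at the noradrenaline transporter gene Slc6a2 were close to evenly split, with 48.3%, 49.5% and 45.3% downstream, the start of Slc22a14 being internal. That at Slc17a7, the vesicular glutamate transporter of excitatory neurons, had 32.5% downstream of the median of its 5 TSS positions, though 1383 bp of it lay upstream of the gene-record start.

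The remaining classes did not stand above the share over all genes. Keratins and keratin-associated proteins had 9 of 110 (8.18%, 4.36 to 14.8%), an interval that includes the 5.12% of all genes, and the widest of their sites were at the keratin genes Krt71, Krt79, Krt78 and Krt77 on chromosome 15, with CpG ratios of 0.148 to 0.221. Zinc finger genes of the Zfp series had 7 of 385 (1.82%, 0.883 to 3.70%), among them Zfp423, whose site of 8192 bp had 46.4% downstream of an internal start. Olfactory and vomeronasal receptors had 12 of 1492 (0.804%, 0.461 to 1.40%), with the neighbours Olfr1411 and Olfr1412 in separate sites of 7272 and 7139 bp in 1 stretch of sites. Mitochondrial and housekeeping genes had 2 of 290 (0.690%), Cox19 and the oocyte translation factor gene Eif4e1b, and ribosomal protein genes had 0 of 80, an interval of up to 4.58%. The classes hold CpG-rich starts in different shares, and among genes with a CpG-rich gene-record start (4.50% over all such genes) the shares were 18.5% for homeobox genes, 18.6% for ion channels, 17.7% for adhesion and matrix genes, 15.0% for secreted signals, 9.73% for other developmental factors, 9.23% for G protein-coupled receptors, 8.18% for solute carriers and 1.61% for Zfp genes. They were 0 for the ribosomal, mitochondrial and housekeeping and olfactory classes, and no keratin gene has such a start.

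**Figure D4:**
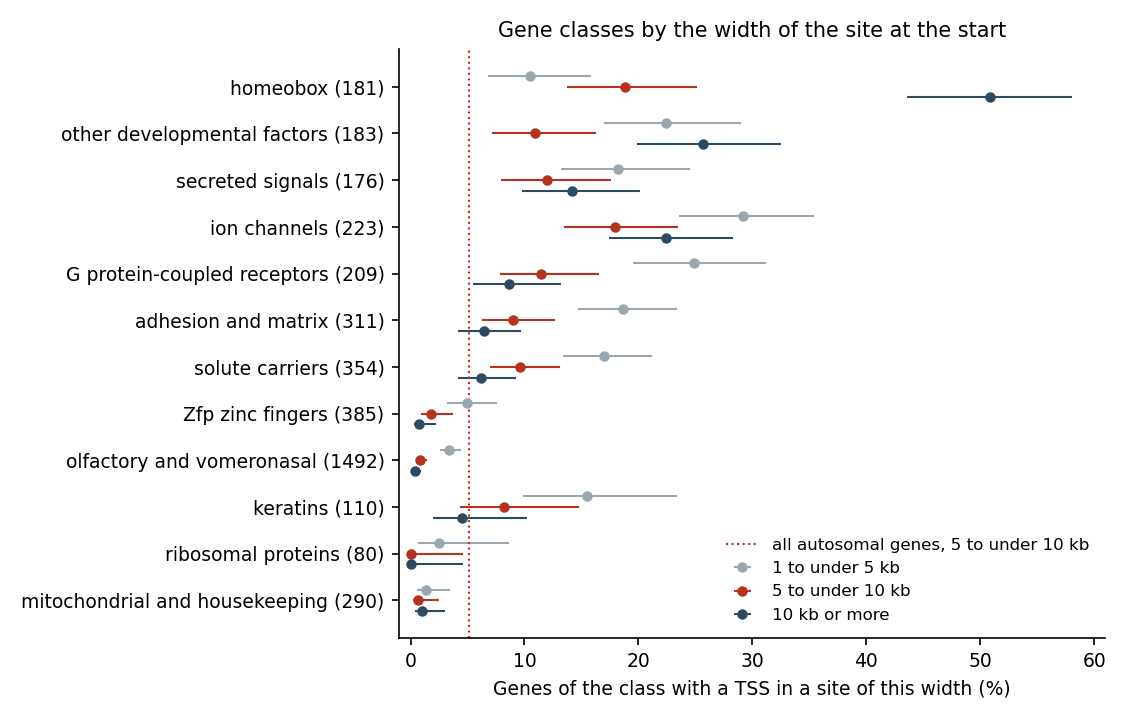
Percent of the autosomal genes of each class (x axis) with a TSS in a site of 1 to under 5 kb (grey), 5 to under 10 kb (red) or 10 kb or more (dark blue), with 95% Wilson intervals and the number of genes of the class in brackets. The dotted line is the 5.12% of all autosomal genes in sites of 5 to under 10 kb; homeobox genes reach 18.8% in these sites and 50.8% in the wider ones.

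By base composition the sites were richer in G and C than the genome, and their CpG ratio was higher. The median CpG ratio, the observed number of CpGs over that expected from the C and G content, was 0.222 (0.2199 to 0.225). It was 0.203 in the narrower and 0.235 in the wider sites, and 10% of the sites were under 0.153 and 10% over 0.391. The median ratio was above that of the narrower sites on 19 of 19 autosomes and below that of the wider ones on 17. Pooled over all bases, the ratio was 0.253 in the sites and 0.194 in the autosomes. The median GC content was 48.9%, and pooled it was 49.2% against 41.9% in the autosomes. The share of lower-case bases, which the assembly marks as repeats, was 17.6% at the median. Pooled, this share was 19.2% against 33.5% in the autosomes.

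A CpG-rich segment, of 200 bp or more with at least 50% GC and a CpG ratio of 0.6 or more, was present in 1396 sites (39.2%, 37.6 to 40.8%), against 11.7% of the narrower and 68.0% of the wider sites, with the same order on all 19 autosomes. Per Mb there were 81.3 segments, against 64.3 and 99.0 in these classes and 26.6 over the autosomes. A site had 1 segment in 1000 cases, 2 in 271, 3 in 88 and 4 or more in 37. The 1396 sites with a segment had a median ratio of 0.296 and 53.2% of them held a protein-coding TSS. The 2168 without one had a median ratio of 0.195, and 16.2% held a TSS. With a stricter definition (at least 500 bp, 55% and 0.65) the share with a segment was 16.0%.

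CpG-rich segments were most frequent at sites with a start. Sites with a protein-coding TSS had a segment in 67.9%, those with the TSS of another gene type in 43.3%, those inside genes in 24.0% and those with no protein-coding gene in 23.4%. At sites with a protein-coding TSS, 71.3% (68.6 to 73.8%) of 1142 segments were centred in the middle 50% of the width, their median length was 736 bp and 71.9% lay within 1 kb of a TSS. At sites with no protein-coding gene the 363 segments were shorter, with a median of 269 bp, and 55.6% (50.5 to 60.7%) were in the middle.

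The sites with the highest CpG ratios were those at Sox1 (0.841), at the muscle myosin chaperone gene Unc45b (0.824 over 7032 bp with a GC content of 61.8%) and at the forkhead gene Foxq1 with A530084C06Rik (0.759). The 5′ end of the Unc45b gene record lay outside this site, which held 2 internal TSS positions. The 3 lowest ratios, 0.029, 0.033 and 0.040, lay close to each other on chromosome 7, at Gm4559, near Gm2431 and at Krtap5-1, a keratin-associated protein of hair.

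From the edge inwards the CpG ratio rose. It was 0.211 in the first 500 bp inside the edge and 0.273 at 2 to 2.5 kb, with 12.3 and 16.9 CpGs per kb, and it was 0.200 in the 500 bp just outside, below the 0.223 found 5 kb away, where many of the bases are in other sites. GC content stepped from 43.9% just outside to 48.3% just inside. The 4818 gaps of under 1 kb beside a site, 1.96 Mb in all, had a pooled GC content of 41.8% against 49.2% in the sites, a CpG ratio of 0.189 against 0.253, 35.8% against 19.2% of lower-case bases, and 11.2 against 34.6 gene-record starts per Mb. The part of base composition and repeats in where edges were called was not tested.

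**Figure D5:**
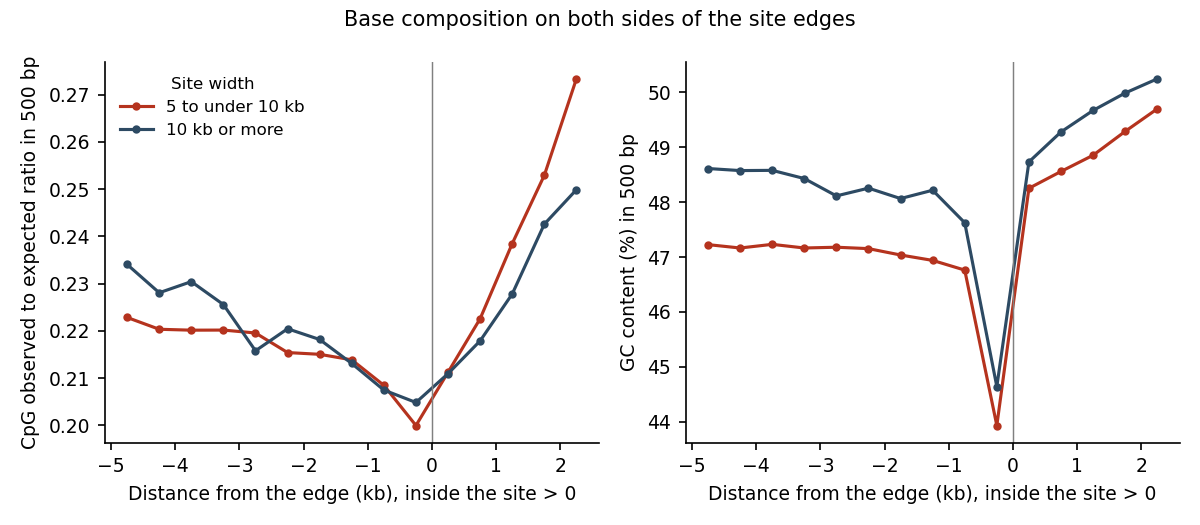
CpG observed to expected ratio (left) and GC content in percent (right), pooled over windows of 500 bp, by distance from the site edge in kb (x axis, inside the site positive), for sites of 5 to under 10 kb (red) and of 10 kb or more (blue). Neither y axis starts at 0; in both widths GC content is lowest just outside the edge, at 43.9% and 44.6%.

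Most of the sites lay close to other, mostly smaller, sites. The median distance to the nearest other site was 324 bp (317 to 331 bp), with 10% under 118 bp and 10% over 990 bp, and another site lay within 1 kb in 3211 (90.1%, 89.1 to 91.0%), on both sides in 51.5% and on 1 side in 38.6%. The share within 1 kb was 85.3% for the narrower and 93.2% for the wider sites. Sites at a protein-coding TSS had a neighbour within 1 kb slightly less often (87.0%, 84.9 to 88.9%) than those with no gene (91.3%, 89.6 to 92.8%). The nearest neighbour was mostly small, with a median width of 1042 bp, and was under 1 kb wide in 48.9%, of 1 to under 5 kb in 38.0%, of 5 to under 10 kb in 8.22% and wider in 4.91%. In the 50 kb on either side a median of 42.6% (41.8 to 43.7%) of the bases were in other sites, against 30.1% around the narrower and 53.3% around the wider sites and 6.51% of the autosomes in any site.

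Joining sites less than 1 kb apart placed the 3564 sites in 2961 stretches and left 353 (9.90%) alone. The stretch around a site had a median width of 15000 bp, 2515 sites (70.6%) were in a stretch of 10 kb or more, and 681 (19.1%) shared it with a site of 10 kb or more. There were 450 stretches with 2 or more of the sites. The most, 10, lay in 1 stretch of 160155 bp on chromosome 9 (64452682 to 64612836), inside Megf11, a gene for a transmembrane protein with EGF-like repeats, and without a gene-record start. Another of the 3564 sites lay at a median distance of 19662 bp, and within 5 kb for 26.7%. Since sites of 1 stretch are not independent, shares were also taken with 1 site per stretch, and 33.4% (31.7 to 35.1%) then held a TSS and 41.4% (39.7 to 43.2%) a CpG-rich segment.

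The distances ran from 1 bp to 350003 bp. The 2 sites that were 1 bp from their neighbour lay at Tekt4, which encodes a tektin of cilia and flagella, in a stretch of 83297 bp, and inside the cytokine receptor gene Il22ra1. The 21 sites (0.589%) with no other within 10 kb included the site at the protocadherin gene Pcdh17, 84227 bp from the nearest, which was 6863 bp wide with a CpG ratio of 0.686 and 3 segments. A site of 6275 bp inside the heparan sulfate sulfotransferase gene Ndst3 was 227964 bp from the nearest, and one of 6062 bp on chromosome 10, 103718 bp from the TSS of Atxn7l3b, was the farthest from any other.

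Along the genome the density of the sites varied from 0.499 per Mb on chromosome 3 to 2.43 per Mb on chromosome 11, with a median of 1.55 over the 19 autosomes. These 2 chromosomes also have the lowest and the highest GC content of the autosomes, 40.5% and 43.8%. The share of sites with a protein-coding TSS ran from 24.5% (chromosome 19) to 39.2% (chromosome 15), that with a CpG-rich segment from 31.1% (chromosome 16) to 49.6% (chromosome 13), and that with another site within 1 kb from 84.8% (chromosome 11) to 94.5% (chromosome 19).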

How the data were processed

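H3K27me3 ChIP-seq of iMEF cells was sequenced by the authors in 12 libraries (6 groups of 2) with 2 inputs. Their steps were adapter trimming (Trim Galore), BWA alignment to mm10 (GRCm38.p6), ENCODE-style filtering (samtools), merging of replicates (Picard), scaling to the library of lowest coverage and broad peak calling (MACS2). The versions, the threshold and the rule for joining peaks are not given in the sources used here. The deposited file holds only positions (chromosome, start and end), read as counted from 0 and printed from 1. No counts or signal were used, 0 columns of values per library were left unassigned, and the planned description rests on positions alone.

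Widths, gaps and overlaps were computed with Python 3.11.15 (numpy 2.4.6, pandas 2.3.3, scipy 1.17.1), functions having been tested on simulated data. Starts came from GENCODE M21 (an earlier release than in the study; 90265 TSSs of protein-coding genes on the autosomes) and bases from the RefSeq copy of GRCm38.p6. A gene's start was the median of its TSSs in the site. A TSS counted as CpG-rich with GC of at least 50% and a ratio of at least 0.6 within 500 bp. A site had a CpG-rich start if any TSS in it met this, and a gene if the 5′ end of its record did. Segments were scanned in windows of 200 bp with these limits and were not wholly lower case. Gene classes were patterns of gene symbols. Shares have Wilson and medians order-statistic intervals (95%). Differences between width classes were described by these intervals and by the number of autosomes with the same sign, without a test.

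Members and lists were chosen with earlier results of these data known. Named items were the narrowest, widest and just excluded sites, up to 4 genes with the widest site per class, the 3 most upstream, most downstream and most even starts, and the 3 extremes of CpG ratio, distance and number of genes. Alternatives were joining sites, other width limits, chromosome X, each autosome left out, and other starts, repeat masks, segments and distances.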

Additional observations from a re-analysis of the deposited data

How the results depend on the processing

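The downstream share stayed over 50% under every alternative run. Leaving out each autosome in turn kept every share and median within its interval, with 3190 to 3503 sites, 30.0 to 31.4% with a protein-coding TSS, 55.7 to 56.6% of the width downstream, a CpG ratio of 0.221 to 0.224, 38.6 to 39.97% with a CpG-rich segment, 89.8 to 90.6% with a site within 1 kb and 5.00 to 5.24% of genes. Adding chromosome X moved none of them past its interval. Joining sites less than 1 kb apart before the width rule gave 5290 sites, of which 21.9% held a TSS, 53.2% of the width lay downstream, the CpG ratio was 0.206, 30.1% had a segment and 5.49% of genes had a TSS in a site, while 0% had a neighbour within 1 kb by construction. Limits of 6000 to under 9000 bp left 1951 sites. The TSS share was 22.4% with gene-record starts, 33.1% within 1 kb of a TSS (5.56% of genes) and 38.4% with genes of any type. The downstream share was 60.7% with gene-record starts and 60.4% with the 5′-most TSS. The CpG ratio was 0.238 outside repeats, and the segment share was 16.0% under the stricter definition and 37.3% for segments under 50% lower case. A neighbour lay within 5 kb in 98.8%, and one at least 500 bp wide within 1 kb in 77.7%. The 5′-most TSS, genes with a single TSS position and the limit on lower case were added once the data were known.

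No paired analysis was possible because positions pooled over libraries have no replicate number, and leaving out a replicate was not possible for the same reason. The width of a site depends on the peak caller, its threshold and the joining of peaks over samples, and on a depth that is unknown. Sites present in control cells alone cannot be told apart from those present after treatment. The classes rest on gene symbols and include members of another function.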
